A study of Mus musculus with 16 samples.

Results

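The chemokine ligands were examined in IFNγ-primed bone marrow-derived macrophages (BMMs) activated with LPS and immune complexes (LPS/ICs) while γ-secretase was inhibited. Members were chosen by symbol: every gene whose symbol began with Ccl, Cxcl or Xcl followed by a digit, together with Cx3cl1 and Pf4. This gave 47 of the 47069 genes in the deposited table, carrying 42 distinct symbols, because several Ccl21 and Ccl27 copies are listed more than once. Ppbp, which encodes the CXC chemokine CXCL7, falls outside this rule and had 2 counts in a DMSO library and 0 in the other 3.

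The macrophages were grown from the bone marrow of C57BL/6 mice in medium conditioned by L929 cells. Both groups were primed overnight with murine IFNγ at 10 ng/mL and then activated for 1 hr with Salmonella LPS at 100 ng/mL and IgG-opsonized ovalbumin. One group received the γ-secretase inhibitor (GSI) DAPT at 25 μM, and the other received the vehicle DMSO at 0.01%. The mice were 8 to 10 weeks old. The methods place the addition of GSI or DMSO on the night before activation, whereas figure legends for other experiments give a much shorter pretreatment. The methods for RNA sequencing do not state its length. There were 2 libraries per group, each the sum of 4 columns that were taken as sequencing runs, since the labels do not define them. Whether the 2 replicates came from separate mice or cultures is not stated, so the p-values measure the spread between these libraries, which may be technical. Macrophages without LPS/ICs or without IFNγ were not analysed here, so the levels below are levels in activated cells and not inductions. γ-Secretase also cleaves many membrane proteins other than Notch receptors.

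Chemokines are small secreted proteins that attract leukocytes through G protein-coupled receptors. CXC ligands with an ELR motif attract neutrophils, CXCR3 ligands attract activated T cells and NK cells, and many CC ligands attract monocytes, T cells or eosinophils. Macrophages are a major source of inflammatory chemokines. NF-κB drives many of these genes after TLR4 ligation, and the IRF factors drive the CXCR3 ligands after interferon. Transcripts of several of them carry AU-rich elements that speed their decay.

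Chemokine transcripts made up 1.38% and 1.39% of all counts with DMSO and 1.84% and 1.76% with GSI. Library totals lay between 42694655 and 56932059 counts, so that 3 counts, taken as the floor, corresponded to 0.0529 to 0.0697 CPM, the count scaled to a common library size. Floors cover counting error only. The cells had the markers of macrophages, with a summed level of 8401 to 10721 CPM for Adgre1, Csf1r, Cd68, Itgam, Fcgr1, Mertk and Lyz2. Of these genes, listed in 8 rows since Itgam has 2 IDs, 6 rows fell and Mertk rose, and the part of this in the chemokine changes was not tested. Summed levels were at most 1.30 CPM for the neutrophil list, 1.05 CPM for T cells and NK cells, 0.538 CPM for B cells, 0.162 CPM for fibroblasts and 0.674 CPM for megakaryocytes. The mast cell list reached 1.12 CPM, all of it Kit. Kit rose from 0.488 and 0.617 CPM with DMSO to 1.12 and 0.870 CPM with GSI (edgeR adjusted p = 0.0233). The dendritic cell list lay between 5.61 and 7.28 CPM, mostly Xcr1 and Dpp4. In the endothelial list, Vwf rose from 30.5 and 30.9 CPM with DMSO to 49.99 and 50.7 CPM with GSI and Kdr rose from 10.5 and 10.3 to 33.4 and 30.8 CPM, while Pecam1 fell and Tek was at 0. In bulk samples, fewer cells of a type and less RNA per cell cannot be told apart.

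Of the 47 chemokine genes, 29 had at least 1 count and 23 passed the filter on low counts. All 23 passed it in the libraries of both groups. With edgeR's quasi-likelihood test and Benjamini-Hochberg adjustment over 13211 genes, 9 members fell and 8 rose with GSI at an FDR under 0.05, and 6 did not pass. Over all genes tested, 21.9% fell and 19.0% rose. The median log2 fold change of the 23 members was -0.08, against 0.01 over all genes tested. A single member, Cx3cl1, also exceeded an absolute log2 fold change of 1.5, which 2.91% of all genes did together with the FDR. Both GSI libraries lay on one side of both DMSO libraries for 19 of the 23 members and for 70.6% of all genes.

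**Figure D1:**
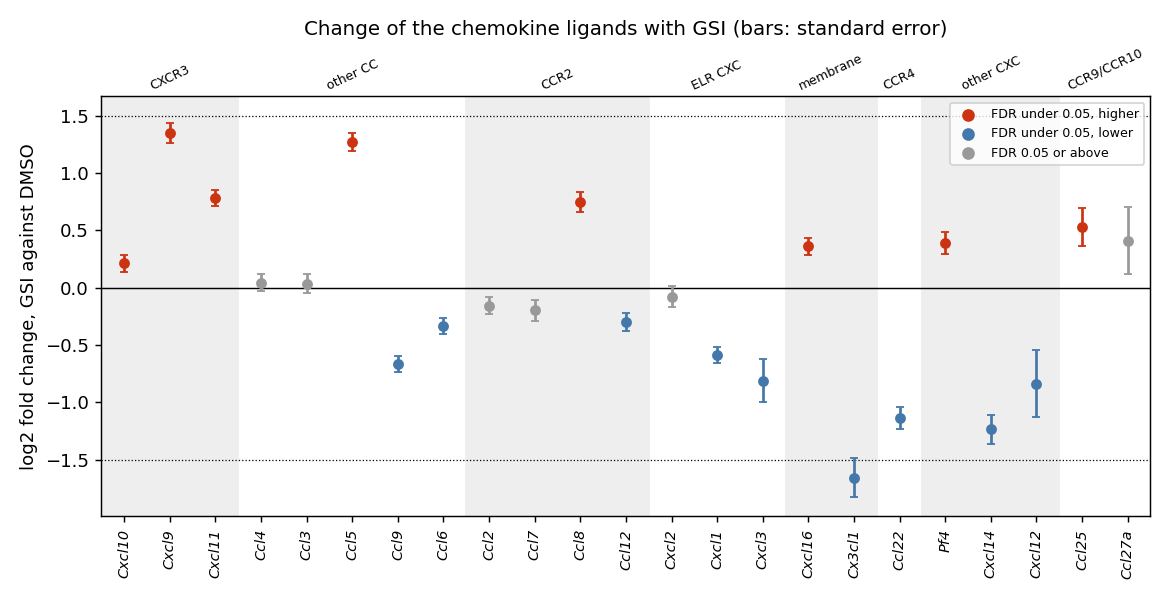
The plot of log2 fold changes shows the 23 tested chemokine ligands, grouped by receptor or kind, on the x axis, with the change of the 2 GSI against the 2 DMSO libraries and its standard error on the y axis. The 3 CXCR3 ligands lie above 0, Ccl5 and Ccl8 stand above their neighbours, and Cx3cl1 is the only point beyond the dotted lines at 1.5.

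Sequences upstream of 5 CXC ligand genes are shown first, since they hold the motif matches described with the CXCR3 and ELR ligands below. The genes lie in 2 separate stretches of chromosome 5. They are the 250 bases before the RefSeq start on GRCm38.p6, written 5′ to 3′ along the gene's strand. Capitals mark a κB motif, an ISRE-like match or an AP-1 match. Cxcl9 (minus strand, chr5:92328080-92328329) holds GAAANNGAA from -175 to -167. Cxcl10 (minus strand, chr5:92348890-92349139) holds GAAANNGAA from -213 to -205, κB motifs from -159 to -150 and from -103 to -94, and TGANTCA from -74 to -68.
Cxcl9: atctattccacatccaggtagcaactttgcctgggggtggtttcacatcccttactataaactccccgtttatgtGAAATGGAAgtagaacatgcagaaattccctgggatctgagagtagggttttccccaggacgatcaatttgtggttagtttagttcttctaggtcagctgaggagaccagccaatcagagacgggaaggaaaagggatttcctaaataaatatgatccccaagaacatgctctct
Cxcl10: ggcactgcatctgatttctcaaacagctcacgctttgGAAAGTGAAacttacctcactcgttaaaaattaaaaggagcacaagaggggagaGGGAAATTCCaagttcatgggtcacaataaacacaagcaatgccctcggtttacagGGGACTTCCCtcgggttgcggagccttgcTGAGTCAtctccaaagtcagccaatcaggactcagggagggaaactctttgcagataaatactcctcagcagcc

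The 3 ELR ligands that passed the filter carried the same 11 bases in capitals, in which the κB motif matches at 2 overlapping positions. They lie from -71 to -61 in Cxcl1 (plus strand, chr5:90890995-90891244), from -97 to -87 in Cxcl2 (plus strand, chr5:90903649-90903898) and from -73 to -63 in Cxcl3 (plus strand, chr5:90785851-90786100).
Cxcl1: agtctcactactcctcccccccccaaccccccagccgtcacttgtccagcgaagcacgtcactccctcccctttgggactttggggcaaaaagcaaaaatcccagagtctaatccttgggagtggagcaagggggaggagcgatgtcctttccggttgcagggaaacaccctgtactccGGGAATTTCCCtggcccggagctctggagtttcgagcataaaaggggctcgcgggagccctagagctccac
Cxcl2: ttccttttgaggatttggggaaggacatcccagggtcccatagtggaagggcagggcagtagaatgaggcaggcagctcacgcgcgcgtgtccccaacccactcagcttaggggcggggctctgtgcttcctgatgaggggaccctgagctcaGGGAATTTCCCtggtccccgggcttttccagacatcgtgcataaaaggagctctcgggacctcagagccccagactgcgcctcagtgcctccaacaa
Cxcl3: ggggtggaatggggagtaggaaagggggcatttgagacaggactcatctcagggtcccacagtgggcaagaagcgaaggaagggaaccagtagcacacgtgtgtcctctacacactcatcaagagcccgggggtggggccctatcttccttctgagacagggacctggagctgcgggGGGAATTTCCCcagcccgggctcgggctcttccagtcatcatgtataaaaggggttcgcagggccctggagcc

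Upstream sequence was matched for 17 of the 23 tested members, the others being Ccl2, Ccl4, Ccl5, Ccl7, Cxcl11 and Cxcl16. Both strands were searched. A member counts once if any of its promoters held the motif (20 promoters for the 17 members, 3 of them for Ccl27a), whereas the shares over all promoters count each promoter. The κB motif was found in 5 of the 17, namely Ccl9, Cxcl1, Cxcl2, Cxcl3 and Cxcl10, and in 3.92% of 32536 promoters of the same length. The ISRE-like GAAANNGAA was in 4 of the 17 (Ccl3, Cxcl9, Cxcl10 and Cxcl14) and in 7.15% of all. The GAS motif TTCNNNGAA was in 1 (Cxcl14) against 7.04% of all, and the AP-1 motif TGANTCA was in 3 (Ccl9, Ccl27a and Cxcl10) against 6.73%. The RBPJ motif GTGGGAA was in none of the 17 and in 5.43% of all promoters. These are matches of letters within 250 bases, and they do not show binding.

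The transcripts of Cxcl9, Cxcl10 and Cxcl11, grouped as CXCR3 ligands, were all higher with GSI. Cxcl9 (ENSMUSG00000029417, chr5:92321347-92328079) measured 2100.0 and 1910.4 CPM with DMSO and 5621 and 4589 CPM with GSI. The groups were far apart compared with the differences within them. The rise was 2.55-fold, a log2 fold change of 1.35 (SE 0.0911, adjusted p = 4.78e-10 by edgeR's quasi-likelihood test). Its rank above Ccl5, described below, was not stable. Without GSI replicate 1 the log2 fold changes were 1.19 for Cxcl9 and 1.26 for Ccl5, and without DMSO replicate 2 they were 1.28 and 1.39. Cxcl11 (ENSMUSG00000060183), which the annotation lists as a polymorphic pseudogene, had 173 and 159 CPM with DMSO and 293 and 277 CPM with GSI. It rose 1.72-fold (log2 fold change 0.78, SE 0.0725, adjusted p = 3.93e-08 by edgeR). Given that annotation, a rise of the Cxcl11 transcript does not show that these cells made a working CXCL11 protein.

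Cxcl10 (ENSMUSG00000034855, chr5:92346638-92348889) measured 4606 and 4648 CPM with DMSO and 5340.2 and 5391 CPM with GSI. The groups did not overlap, but the change was small, at 1.16-fold (log2 fold change 0.21, SE 0.0738, edgeR adjusted p = 0.0256). This call was lost without DMSO replicate 1 (edgeR adjusted p = 0.161) and without DMSO replicate 2 (0.128), while the log2 fold change stayed between 0.21 and 0.22. Cxcl10 shares 133 exon bases with Art3 on the opposite strand, which had 411 and 184 counts with DMSO and 68 and 12 with GSI, at most 0.207% of the Cxcl10 counts.

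Cxcl9 and Cxcl10 therefore stood in a different proportion in the groups. The ratio of Cxcl9 to Cxcl10 counts was 0.456 and 0.411 with DMSO but 1.05 and 0.851 with GSI. The ranges did not overlap, and an exact permutation test over 2 against 2 libraries cannot give a p below 0.333. Together the 3 CXCR3 ligands summed to 6879 and 6717 CPM with DMSO and to 11255 and 10257 CPM with GSI, or 50.2% and 48.2% against 61.0% and 58.3% of all chemokine CPM. The other members summed to 6821 and 7218 CPM with DMSO and to 7195 and 7334 CPM with GSI, so these groups overlapped.

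**Figure D2:**
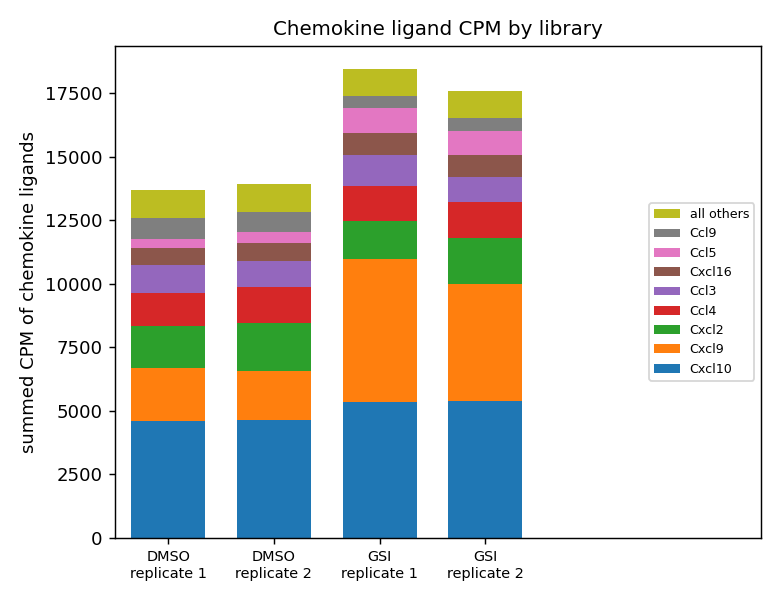
The stacked bars show the CPM of the chemokine ligands in each of the 4 libraries, with the 8 most abundant members in colours and all others together. The orange block of Cxcl9 grows from 2100.0 and 1910.4 CPM with DMSO to 5621 and 4589 CPM with GSI.

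The inflammatory CC ligands Ccl3, Ccl4, Ccl5, Ccl6 and Ccl9, which act on monocytes, macrophages and T cells, went in different directions. Ccl5 (RANTES, ENSMUSG00000035042, chr11:83525778-83530518) measured 361 and 423 CPM with DMSO and 955 and 938 CPM with GSI. Both GSI libraries exceeded both DMSO libraries, and the rise was 2.41-fold (log2 fold change 1.27, SE 0.0813, edgeR adjusted p = 2.38e-10). Ccl9 (MIP-1γ, ENSMUSG00000019122), a ligand of CCR1, had 819.6 and 793 CPM with DMSO against 492 and 524 CPM with GSI. It was lower by a log2 fold change of -0.67 (SE 0.0733, edgeR adjusted p = 3.87e-07). Ccl6, another CCR1 ligand, had 139 and 127 CPM with DMSO and 107 and 104 CPM with GSI, a fall of smaller size (log2 fold change -0.33, SE 0.072, edgeR adjusted p = 8.79e-04).

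Ccl3 (MIP-1α) and Ccl4 (MIP-1β), attractants of monocytes and T cells, did not pass the test. Ccl3 had 1107 and 1040.3 CPM with DMSO and 1195 and 1005 CPM with GSI, so that the groups overlapped. Its log2 fold change was 0.04, with a 95% interval from -0.14 to 0.21. Ccl4 had 1278 and 1407 CPM with DMSO and 1373 and 1395 CPM with GSI, both within the range of the DMSO libraries, and its log2 fold change was 0.04 with an interval from -0.11 to 0.20. Per kilobase, Ccl4 and Ccl3 followed Cxcl10 in the DMSO group, at means of 2035 and 1401 CPM per kb against 2055 for Cxcl10. Cxcl10 and Ccl4 cannot be ordered there, since Cxcl10 had 2045 and 2064 and Ccl4 had 1937 and 2132 CPM per kb. This near tie depends on the lengths used. The annotated exons of Cxcl10 merged into 1 block of 2252 bases, which is the whole span of the gene. Those of Ccl4 made 3 blocks with 660 bases in all. In CPM, Cxcl10 was well above Ccl4, at 4606 and 4648 with DMSO. With GSI, Cxcl9 passed from the fifth to the third place, at a mean of 1693 CPM per kb against 665 with DMSO, although its lower library (1522) lay below the higher Ccl3 library (1560.4).

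**Figure D3:**
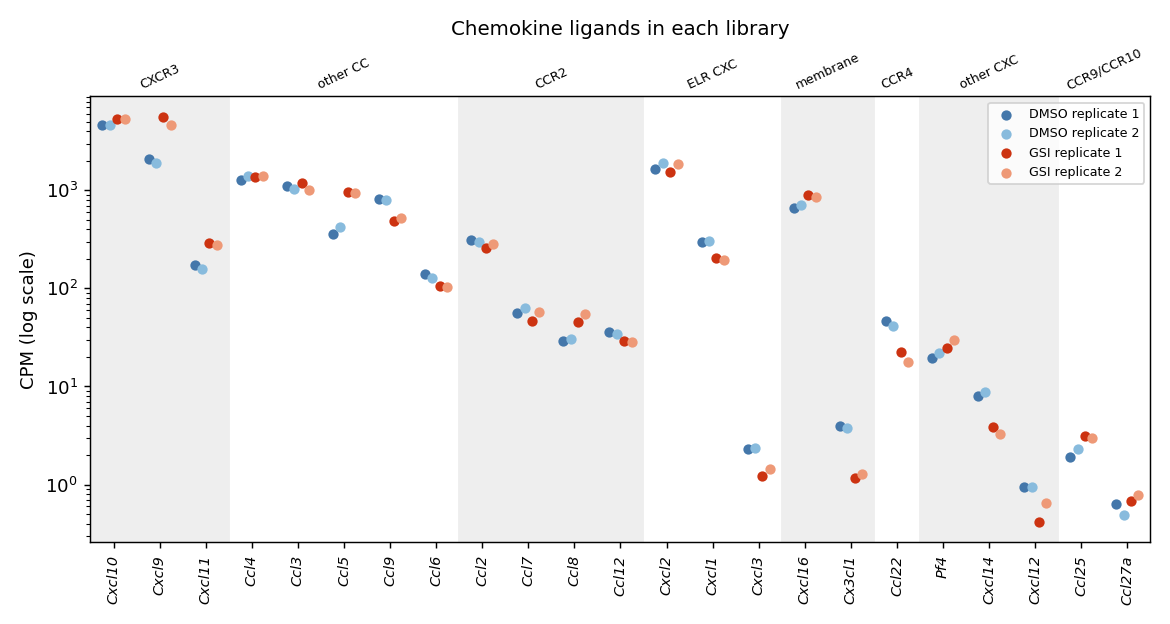
The plot of levels gives the CPM of each tested chemokine ligand on a log axis, with a point for each of the 2 DMSO (blue) and 2 GSI (red) libraries. Levels run from about 0.4 CPM for Cxcl12 to 5621 CPM for Cxcl9, and the blue and red points separate most widely for Cx3cl1, Cxcl9, Ccl5 and Cxcl14.

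Among the genes grouped as monocyte chemoattractants, whose receptors are not all the same, Ccl8 and Ccl12 changed and in opposite directions. Ccl8 (MCP-2, ENSMUSG00000009185) had 29.4 and 30.4 CPM with DMSO and 45.5 and 55.0 CPM with GSI. The GSI libraries were both higher, by a log2 fold change of 0.75 (SE 0.0864, edgeR adjusted p = 7.28e-07). Ccl12 (MCP-5) had 36.2 and 33.9 CPM with DMSO and 28.8 and 28.1 CPM with GSI. Its fall was small (log2 fold change -0.30, SE 0.0777, edgeR adjusted p = 0.00417) and was lost without DMSO replicate 1 (edgeR adjusted p = 0.0512).

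Ccl2 (MCP-1), the main attractant of CCR2-bearing monocytes, did not pass. It had 311 and 296 CPM with DMSO and 260.3 and 284 CPM with GSI, which did not overlap. The log2 fold change was -0.16, with a 95% interval from -0.31 to -0.01 and an edgeR adjusted p of 0.091. Ccl7 (MCP-3) had 56.1 and 63.1 CPM with DMSO and 46.8 and 57.1 CPM with GSI, and these overlapped (log2 fold change -0.20, interval -0.38 to -0.01, edgeR adjusted p = 0.0783). Both passed when the replicate number was a block, with edgeR adjusted p of 0.0393 for Ccl2 and 0.00818 for Ccl7. Without GSI replicate 2 both passed as well (edgeR adjusted p = 0.0267 and 7.87e-04), and Ccl7 did so also without DMSO replicate 1 (0.0293). The changes were smaller without GSI replicate 1, at -0.09 for Ccl2 and -0.06 for Ccl7 (edgeR adjusted p = 0.397 and 0.621). Without DMSO replicate 2 Ccl7 was at -0.11 (0.431), and Ccl2 at -0.19 (0.127), while without DMSO replicate 1 Ccl2 was at -0.12 (0.383).

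The ELR CXC ligands attract neutrophils through CXCR2. Cxcl1 (KC, ENSMUSG00000029380, chr5:90891241-90893115) measured 294 and 306 CPM with DMSO and 206 and 194 CPM with GSI. It fell to 0.667 of the DMSO level (log2 fold change -0.58, SE 0.0705, edgeR adjusted p = 1.28e-06). Cxcl3 was much rarer, at 2.30 and 2.36 CPM with DMSO and 1.22 and 1.44 CPM with GSI, and fell by 0.81 on the log2 scale (SE 0.189, edgeR adjusted p = 0.00179). Cxcl2 (MIP-2), the most abundant of the 3 per kilobase, had 1641 and 1914 CPM with DMSO and 1529.6 and 1836 CPM with GSI. These overlapped, and the log2 fold change was -0.08 with a 95% interval from -0.27 to 0.11 (edgeR adjusted p = 0.518). Without GSI replicate 2 Cxcl2 did pass (log2 fold change -0.22, edgeR adjusted p = 0.0433), whereas without DMSO replicate 2 or GSI replicate 1 its sign turned (0.03 and 0.05). The 3 promoters printed above carried the same κB stretch. Cxcl5 had 3 counts in a GSI library and 0 in the other 3, and Cxcl15 had 0 counts in all 4.

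The membrane-anchored ligands Cx3cl1 and Cxcl16 carry their chemokine domain on a mucin-like stalk and are released by ADAM10 and ADAM17. Cx3cl1 (fractalkine, ENSMUSG00000031778, chr8:94772009-94782427) measured 4.00 and 3.77 CPM with DMSO and 1.18 and 1.28 CPM with GSI, from 172 and 214 counts and 57 and 63 counts. The groups were well separated. The log2 fold change of -1.66 (SE 0.172, edgeR adjusted p = 1.80e-07) was the largest fall among the members and lay between -1.72 and -1.60 when each library in turn was left out. Cxcl16 was far more abundant, at 664 and 702 CPM with DMSO and 897 and 856 CPM with GSI, and rose 1.28-fold (log2 fold change 0.36, SE 0.0734, edgeR adjusted p = 5.30e-04). It shares 552 exon bases with Zmynd15 on the opposite strand, whose counts were between 1.69% and 2.71% of those of Cxcl16.

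Ccl22 (MDC, ENSMUSG00000031779, chr8:94745590-94751699), a ligand of CCR4 on regulatory and Th2 cells, had 46.9 and 41.2 CPM with DMSO and 22.2 and 17.7 CPM with GSI. It fell to 0.454 of the DMSO level (log2 fold change -1.14, SE 0.097, edgeR adjusted p = 1.17e-08). Dendritic cells are another source of Ccl22. Of the dendritic cell list, Siglech was at 0, 4 of 6 genes were tested and 1, Xcr1, fell. Its summed level was 7.11 and 7.28 CPM with DMSO and 6.20 and 5.61 CPM with GSI, and its part in the change of Ccl22 was not tested. Ccl17, the other CCR4 ligand, had 1 count in all, and Ccl1, a CCR8 ligand, had 0.

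Of the remaining CXC ligands, Cxcl14 (BRAK, ENSMUSG00000021508) had 7.97 and 8.88 CPM with DMSO and 3.89 and 3.28 CPM with GSI. It fell by 1.24 on the log2 scale (SE 0.127, edgeR adjusted p = 1.64e-07). Pf4 (platelet factor 4, CXCL4), known from platelets and also made by macrophages, had 19.5 and 22.1 CPM with DMSO and 24.6 and 30.0 CPM with GSI. It was 1.31-fold higher (log2 fold change 0.39, SE 0.0963, edgeR adjusted p = 0.00289), and the call was lost without GSI replicate 2 (0.0556). The platelet list summed to 0.674 and 0.652 CPM with DMSO and 0.476 and 0.405 CPM with GSI, with Gp1bb and Gp9 at 0 in all libraries. Cxcl12 (SDF-1), the CXCR4 ligand of stromal cells, had only 41 and 54 counts with DMSO and 20 and 32 with GSI. Its log2 fold change of -0.84 passed by edgeR (adjusted p = 0.0257) but not by DESeq2 (adjusted p = 0.214), and also not without either DMSO library or without GSI replicate 1. Cxcl13 had 1 count in all and Cxcl17 had 0.

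Ccl25, the CCR9 ligand of thymus and gut, had 1.91 and 2.29 CPM with DMSO and 3.14 and 2.96 CPM with GSI. Its log2 fold change was 0.53 (SE 0.166, edgeR adjusted p = 0.015), and the call was lost in DESeq2 (adjusted p = 0.134) and, with edgeR, without DMSO replicate 1 (0.128). Ccl25 shares 204 exon bases with Elavl1 on the opposite strand, which had 2695 to 3575 counts against 82 to 152 for Ccl25. One copy of Ccl27a, a CCR10 ligand with near-identical copies, had 27 and 28 counts with DMSO and 33 and 39 with GSI and did not pass (log2 fold change 0.41, interval -0.21 to 1.03). Its counts are uncertain where reads could be split among copies.

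The members below the filter were few in counts. Ccl24, an eotaxin, had 5, 5, 5 and 2 counts, Ccl28 had 0, 0, 1 and 3, and Ccl20 had 1 count in a GSI library and 0 elsewhere. All 4 libraries were at 0 for 18 genes with 14 distinct symbols. They were the eotaxins Ccl11 and Ccl26, the lymph node ligands Ccl19, Ccl21a, Ccl21b and Ccl21c, 2 further copies of Ccl27a, Ccl27b, Ccl1, Xcl1, Cxcl15, Cxcl17, and the pseudogenes Ccl19-ps1 and Ccl19-ps3. A count of 0 allows up to 3 counts per library at this depth, except for the Ccl21 and Ccl27 copies. Reads that match several of those copies may not have been assigned to any, so their 0 may not mean absence.

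Many of the members lie in 5 stretches of neighbouring genes, and 3 of these held calls in both directions. On chromosome 5, Cxcl9, Cxcl10 and Cxcl11 lie within 44.1 kb and were all higher, by log2 fold changes of 1.35, 0.21 and 0.78. On chromosome 8, the lower ends of Ccl22 and Cx3cl1 are 26.4 kb apart and both fell, while Ccl17, 64.9 kb from Ccl22 by the same measure, was almost without counts. On chromosome 11, Ccl5 was higher and Ccl9, whose lower end is 47.1 kb away, was lower, and Ccl3 and Ccl4 at the far end did not pass. In the MCP stretch of the same chromosome, Ccl8 rose while its nearest tested neighbour Ccl12 fell. The other stretch of chromosome 5 held the lower Cxcl1 and Cxcl3 and the higher Pf4.

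**Figure D4:**
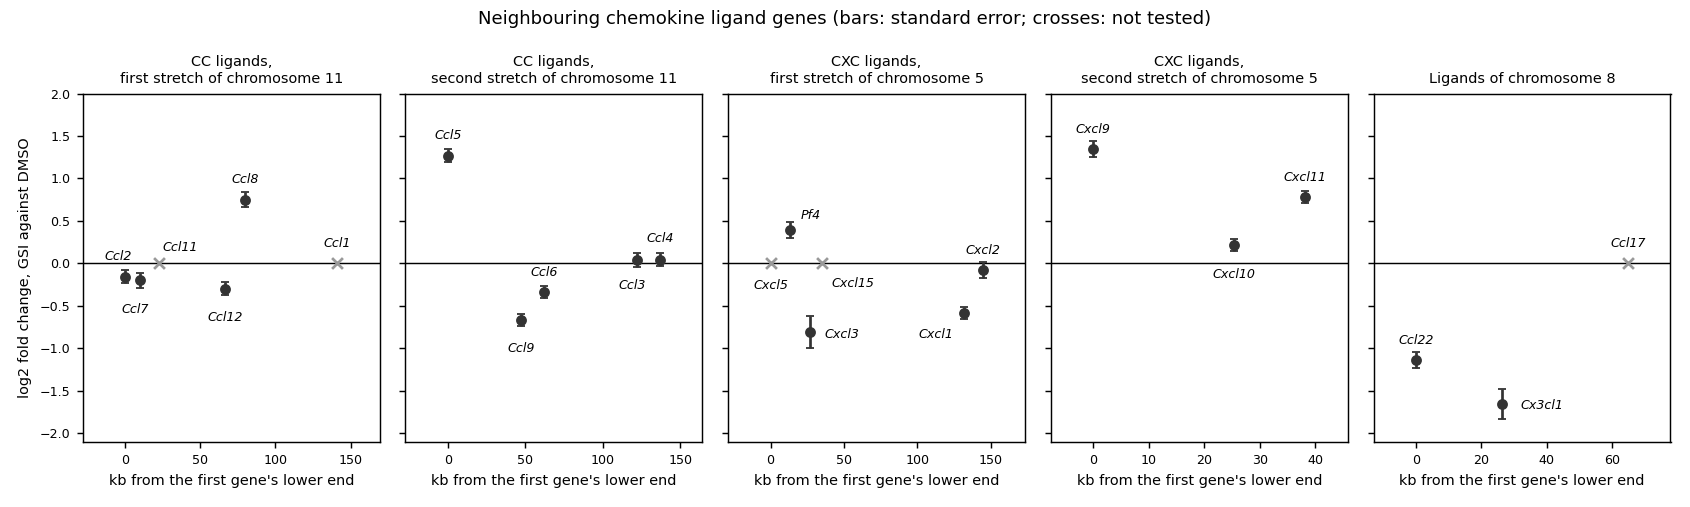
The 5 panels show neighbouring chemokine genes by the distance of their lowest coordinate from that of the first gene (x axis, kb) and their log2 fold change with its standard error (y axis). Crosses at 0 mark genes with too few counts for a test. Points of both signs stand in the panels of chromosome 11 and of the first stretch of chromosome 5, and points of a single sign in the other 2 panels.

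Most tested receptors for these ligands were lower. Of 19 receptor genes, 10 were tested, 8 fell and none rose, where 21.9% of all genes tested fell and 19.0% rose. One of the other 2, Ccr7, reached the filter's level in both DMSO libraries but in only 1 GSI library, and it did not pass the test. Cx3cr1, the receptor of Cx3cl1, fell from 2.60 and 3.10 CPM with DMSO to 0.848 and 0.709 CPM with GSI (log2 fold change -1.88, SE 0.207, edgeR adjusted p = 3.95e-07). Ccr2 followed at -1.80, then Ccr1 at -1.31 and Ccr3 at -1.21. Cxcr3, the receptor of the ligands that rose, fell by 0.66 on the log2 scale. Among 5 atypical receptors only Ccrl2 was tested, and it rose (log2 fold change 0.36, from 607 and 642 to 793 and 806 CPM, edgeR adjusted p = 5.49e-04).

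Of the 8 proteases that process chemokines, 2 fell and 1 rose, shares close to the 21.9% and 19.0% of all genes. Mmp14, a membrane-type matrix metalloproteinase, rose from 4.81 and 5.74 CPM with DMSO to 21.7 and 21.3 CPM with GSI (log2 fold change 2.02, SE 0.104, edgeR adjusted p = 1.12e-11). Adam10, the sheddase of Cx3cl1 and Cxcl16, had 251.2 and 231 CPM with DMSO and 147 and 159 CPM with GSI (log2 fold change -0.66, SE 0.0733, edgeR adjusted p = 4.58e-07). Adam17 did not pass, at a log2 fold change of -0.07.

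Of 12 NF-κB subunits and inhibitors, 3 fell and 1 rose, against 21.9% and 19.0% of all genes, so the lower share was near the background. Rel fell most, from 489 and 487 CPM with DMSO to 286 and 305 CPM with GSI (log2 fold change -0.72, SE 0.0712, edgeR adjusted p = 9.11e-08), and Relb rose by 0.21 (SE 0.078, edgeR adjusted p = 0.0335). Of 12 interferon genes and regulators, 4 fell and 3 rose, against the same 21.9% and 19.0%. Ifnb1, encoding interferon β, rose most, with 10.2 and 13.1 CPM under DMSO and 27.1 and 27.9 CPM under GSI (log2 fold change 1.23, SE 0.102, edgeR adjusted p = 7.51e-09). Ifngr1, a chain of the IFNγ receptor, fell most, by 0.62 (SE 0.0711, edgeR adjusted p = 6.97e-07). Among the IRF and STAT factors of the list, Irf7 rose by 0.62 (edgeR adjusted p = 9.62e-07) and Stat2 by 0.37 (4.61e-04), Irf3 fell by 0.20 (0.0314), and Irf1 did not pass, at a log2 fold change of 0.13.

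Of 9 genes of chemokine mRNA decay, 3 fell and none rose, against 21.9% and 19.0% of all genes. Zfp36l1, a relative of tristetraprolin that binds AU-rich elements, fell from 244 and 224 CPM with DMSO to 87.0 and 83.4 CPM with GSI (log2 fold change -1.46, SE 0.073, edgeR adjusted p = 8.01e-12). Zfp36, which encodes tristetraprolin, did not pass (log2 fold change -0.07). None of 6 Notch target genes passed the filter, and Hes1 had 5 and 2 counts with DMSO and 1 and 5 with GSI, too few for a test at this depth.

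**Figure D5:**
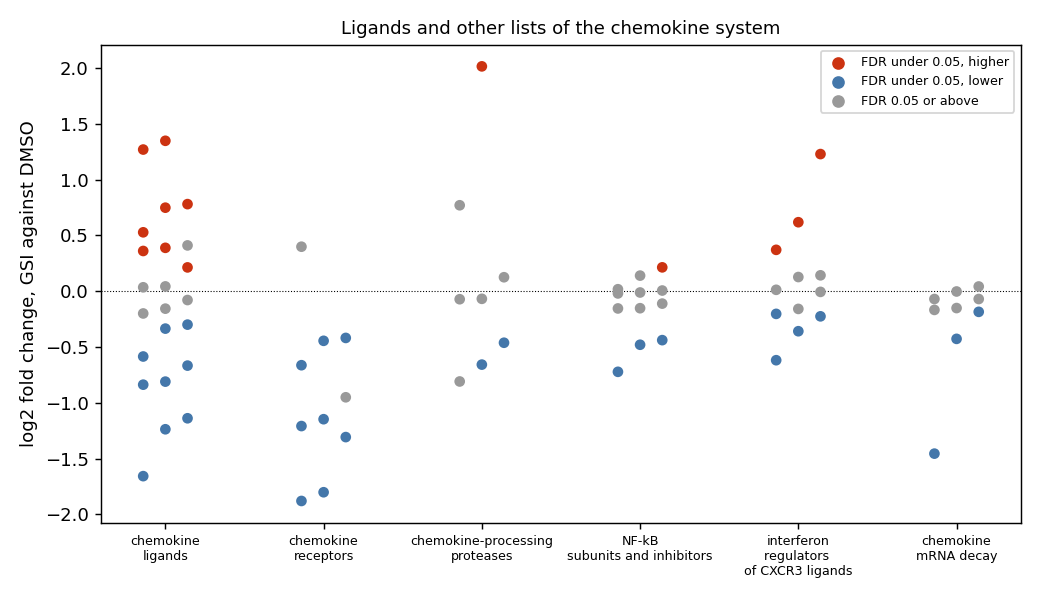
Each point is the log2 fold change (y axis) of a tested gene of the list named on the x axis, coloured by the test. The ligands hold 9 blue (lower) and 8 red (higher) points, and the receptors hold 8 blue points and no red point.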

How the data were processed

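The authors made stranded poly(A) libraries, trimmed adapters, aligned reads to mm10 with STAR (2.5.0a in the submitters' processing notes) and obtained gene-level counts with HTSeq. They deposited these counts, 4 columns per replicate, without scaling. The notes name mm9 as well as mm10, and the methods name Entrez Gene, whereas the table lists Ensembl IDs. HTSeq's strand setting is not given in the sources used here.

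The labels do not say what the 4 numbered columns of a replicate are. They were taken as sequencing runs, matched to samples by title, and summed, which sets n at 2 per group. Runs were compared over the 21 or 22 members with at least 40 counts in a library. Chi-square per degree of freedom among runs was 0.816 to 1.12 in 3 libraries and 1.68 in GSI replicate 1. In that library 1 member differed among runs at an FDR under 0.05. edgeR 4.0.16 (R 4.3.3; quasi-likelihood test, filterByExpr, TMM) compared 2 GSI with 2 DMSO libraries. The standard error was the log2 fold change divided by the root of F. CPM used TMM-adjusted sizes, and CPM per kb divided by the annotated exon bases of GENCODE M21, which held 46574 of the 47069 IDs. Whether its exons are those counted is not known, which bears on levels per kb and on exon bases shared between strands. DESeq2 1.42.0, other scalings, filters and libraries left out were alternatives, and the scripts were tested on simulated data.

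Every tested member was named. Members at an FDR under 0.05 and at least 1 CPM got all values. Of each other list, the largest rise and fall among genes at an FDR under 0.05 and a mean of at least 1 CPM, and Hes1, were taken, and further genes named there were chosen after their values were seen. Members, lists and motifs were chosen with earlier results of these data known. Upstream sequences were RefSeq's, on GRCm38.p6. A few listed genes are not reported here by name.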

Additional observations from a re-analysis of the deposited data

How the results depend on the processing

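Of the 17 calls, 12 kept their direction and significance under each of the other tests, scalings and filters that gave a p and with each library left out, and 5 (Ccl12, Ccl25, Cxcl10, Cxcl12 and Pf4) lost it in at least 1; none of the 17 changed sign. With each library left out in turn, where a lone library is assumed to vary like the others, 8 to 12 members were lower, 6 to 8 higher and 1 past both thresholds, and the median log2 fold change lay between -0.217 and -0.011. The 3 members named next, which had not passed, changed sign. Ccl3 ranged from -0.095 to 0.155 (-0.011 without DMSO replicate 2), Ccl4 from -0.025 to 0.112, and Cxcl2 from -0.217 to 0.047 (0.035 without DMSO replicate 2). With no filter, where 29 members were tested, the median was 0.043. At a cut-off of 1 on the absolute log2 fold change, 5 members passed both thresholds (Ccl5, Ccl22, Cx3cl1, Cxcl9 and Cxcl14). With the replicate number as a replicate block, 11 members were lower, 8 higher and 1 past both, Ccl2 and Ccl7 having joined; the labels say nothing of what a number shares, and the deviations of same-numbered libraries correlated at 0.184 over all tested genes and 0.435 over the tested members. DESeq2 gave 8 lower and 7 higher, and the 16 runs taken as separate samples gave 10 and 8 of 21 tested. Scaling by totals without the 50 highest genes, chosen after seeing the data, gave every tested member the same sign (no test was run) and shifted the median of all genes by 0.02. With 2 libraries a group, an SD rests on 1 difference, and the counts of Ccl27a and Cxcl12, both under 1 CPM, leave wide errors.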
